A study of Drosophila melanogaster with 3 samples.

Results

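The regions described here were peaks of the DNA-associated protein CG10543 that lay inside introns at a moderate distance from transcription start sites (TSSs). A peak was a member when its summit, the position of highest enrichment, lay over 1000 bp and at most 5000 bp from every annotated TSS and fell in a transcript but in no exon. The rule used position only, and 1369 of the 7545 peaks of the optimal set met it, which was 18.1% of them (exact Clopper-Pearson 95% interval 17.3 to 19.0%). The optimal set holds peaks whose ranks repeat between replicates, by the irreproducible discovery rate (IDR). Of the other peaks, 4129 lay within 500 bp of a TSS, 760 lay between 500 and 1000 bp, 632 were intronic at over 5000 bp, 155 were exonic and 500 intergenic, the last 2 groups at over 1000 bp.

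Chromatin immunoprecipitation sequencing (ChIP-seq) was carried out on whole Drosophila melanogaster embryos aged 0 to 24 h, with males and females pooled. All 3 biological replicates came from a stable transgenic line in which green fluorescent protein (labelled eGFP) was joined to the C-terminal end of CG10543, and an anti-GFP antibody was used on chromatin sonicated to 200 to 800 bp. There was 1 group, so no condition could be compared, and embryos without the tag were not analysed here. Whether the line kept its untagged copies of CG10543, and which cells made the tagged protein, is not given in the sources used here. Whole embryos mix many cell types and a full day of development, so binding in fewer cells and weaker binding per cell cannot be told apart.

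Introns are removed from the transcript by splicing, and in Drosophila the long introns near the start of a gene often hold enhancers, stretches of DNA to which transcription factors bind and from which they raise or lower transcription of a gene some distance away. A promoter, by contrast, lies at the TSS itself, where RNA polymerase assembles. Intronic sites of a factor can serve the host gene, a nested gene or a neighbour, and position alone does not say which.

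The sequences around the summits of 7 of the best-ranked members are shown first, as examples. They were read from the RefSeq Release 6 genome, which has the dm6 coordinates of the peaks, on the plus strand, and each holds the summit at its centre with 75 bp on either side. Capitals mark matches, on either strand, to the 5 motifs and the 5 6-base words (6-mers) with the largest odds of being more frequent at member summits than beside them.
CG11050, chr2L:6612640-6612790: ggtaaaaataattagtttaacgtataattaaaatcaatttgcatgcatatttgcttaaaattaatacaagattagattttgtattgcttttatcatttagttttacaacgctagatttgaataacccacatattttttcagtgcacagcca
Trl, chr3L:14759437-14759587: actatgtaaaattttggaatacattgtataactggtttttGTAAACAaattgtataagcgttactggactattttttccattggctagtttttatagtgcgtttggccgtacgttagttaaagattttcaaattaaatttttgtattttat
Tlk, chrX:3742139-3742289: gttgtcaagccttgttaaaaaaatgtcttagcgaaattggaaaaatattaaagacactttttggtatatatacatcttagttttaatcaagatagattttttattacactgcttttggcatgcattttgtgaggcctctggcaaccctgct
ush, chr2L:481016-481166: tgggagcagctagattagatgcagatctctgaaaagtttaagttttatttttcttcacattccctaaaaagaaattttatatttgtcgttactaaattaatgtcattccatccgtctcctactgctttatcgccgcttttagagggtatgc
SCaMC, chr3L:12407102-12407252: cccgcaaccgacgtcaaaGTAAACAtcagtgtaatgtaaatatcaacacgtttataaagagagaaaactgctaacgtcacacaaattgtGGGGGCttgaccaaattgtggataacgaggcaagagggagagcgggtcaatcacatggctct
Glut4EF, chr3R:9932538-9932688: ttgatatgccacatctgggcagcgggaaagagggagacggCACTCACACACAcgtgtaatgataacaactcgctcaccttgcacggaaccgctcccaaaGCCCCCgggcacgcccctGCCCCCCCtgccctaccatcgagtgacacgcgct
Tre1, chrX:5677981-5678131: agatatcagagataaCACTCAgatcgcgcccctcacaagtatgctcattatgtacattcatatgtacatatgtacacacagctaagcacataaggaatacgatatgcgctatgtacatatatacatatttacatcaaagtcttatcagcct

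The 3 best-ranked of these, in CG11050, Trl and Tlk, were rich in A and T, with G and C making up 25.2%, 26.5% and 32.5% of the printed stretch. The Glut4EF member was at the other end with 61.6% G and C, a CA repeat overlapping a Zeste site, and runs of C. A forkhead site stood in the Trl and SCaMC members, the latter with the word GGGGGC as well, and a Zeste site in the Tre1 member, whereas the CG11050, Tlk and ush members held none of the marked letters. Stretches of the same length at the norpA, CG32772, CG9837, for and Kdm2 members, which are not printed, held none either. The printed stretches therefore show matches more often than the best-ranked members do. The CG11050 summit lay in an intron of 140 bp, so that the printed stretch runs beyond the intron. Over the 20 best-ranked members, 8 of the windows reaching 100 bp on either side of the summit held at least 1 marked motif or word, against 777 (56.8%) of all members. The share was 33.7% in windows of that size beside the member summits. The marked letters were chosen for being more frequent at these summits than beside them, so this gap was set in advance. A match is a match of letters, and binding of the factor named was not measured.

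Members were dense in the sequence that could hold them. The genome has 20.1 Mb of intronic sequence that meets the rule, called eligible here, and it held 68.0 members per Mb. Taking from each replicate as many of its strongest regions as there are IDR peaks, the density of regions that met the rule was 70.8, 70.8 and 63.9 per Mb (mean 68.5 ± 4.01, SD, n = 3). Introns farther than 5000 bp from every TSS held 22.3 peaks per Mb (replicate mean 23.2 ± 1.13) and intergenic sequence 14.9 per Mb (15.1 ± 1.08). In all 3 replicates the eligible introns were denser than either, and the replicate values did not overlap. Sequence within 500 bp of a TSS held 228 peaks per Mb and was denser again.

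Within the members, density fell with distance. It was 85.5 per Mb at 1 to 2 kb from the nearest TSS (600 members), 66.7 at 2 to 3 kb (356 members), 57.5 at 3 to 4 kb (246 members) and 47.7 at 4 to 5 kb (167 members). The replicate means were 87.7 ± 4.74, 66.2 ± 3.66, 58.1 ± 4.40 and 46.2 ± 3.53 per Mb (SD, n = 3), and the order was the same in each replicate. Weaker regions, meaning those of the pooled list without an overlapping IDR peak, thinned out less over the same distances, from 270 to 199 per Mb. The median signal percentile among all IDR peaks, where 0 is the weakest and 100 the strongest peak, was 45.2, 44.8, 40.9 and 41.7 from the nearest to the farthest bin. At the inner limit of the rule, the 91 intronic summits at 1000 to 1100 bp had a median deposited signal of 303 and the 92 at 900 to 1000 bp one of 383. At the outer limit the 10 summits at 4900 to 5000 bp had a median of 269 and the 23 just beyond one of 398.

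**Figure D1:**
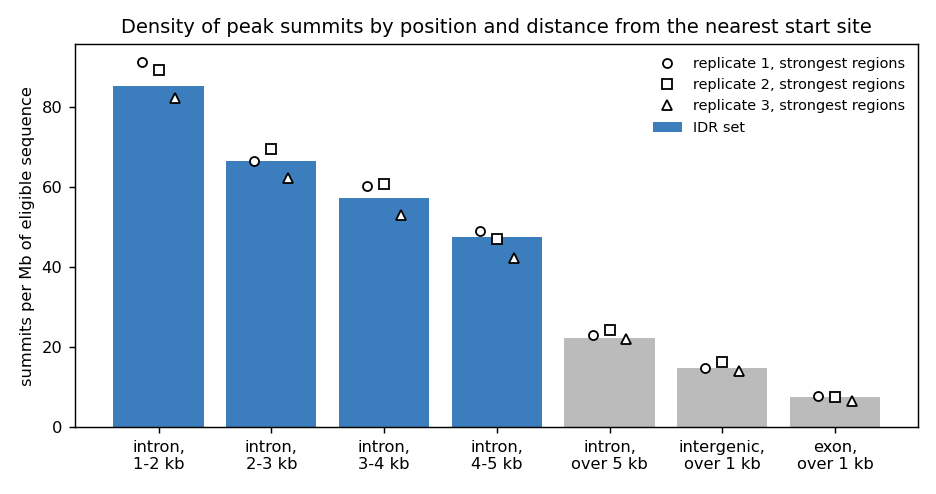
Peak summits per Mb of eligible sequence (y axis) for the members in 4 distance bins (blue) and for 3 other classes (grey). Bars are the IDR set and open symbols the strongest regions of each replicate; the bars step down from 85.5 to 47.7 per Mb within the members, and every replicate value of the members lies above every value of the other 3 classes.

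Chromosome arms differed in density as well. The values were 83.9 members per Mb of eligible sequence on arm 2R, 80.2 on 3L, 65.2 on 3R, 60.8 on 2L and 55.0 on X. The replicates gave 81.1 to 92.1 per Mb for 2R and 50.3 to 62.3 for X, which do not overlap, whereas those of 2L (60.5 to 66.0) and 3R (65.6 to 70.9) do. The small chromosome 4, which is largely heterochromatic, held 2 members in 0.267 Mb, and its replicates gave 11.2, 3.74 and 0 per Mb.

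Members were somewhat weaker than the IDR peaks as a whole. Their deposited signal ran from 206 to 5040 with a median of 304 and quartiles of 242 and 425, and the median percentile was 44.1. For all IDR peaks the median signal was 324 and the median percentile 50. Of the 100 strongest IDR peaks 14 were members, whereas members made up 18.1% of all IDR peaks. In the strongest 10% of the list stood 108 members (7.89%). Against TSS peaks, the median percentile differed by -8.45, -12.6 and -12.2 points in replicates 1, 2 and 3 (members minus TSS peaks, mean -11.1 ± 2.27, SD, lower in 3 of 3). The exact sign-flip permutation test gave p = 0.25, the smallest that 3 replicates allow. Ranked by the deposited q-value instead, which ties many regions, the mean difference was -21.0 points (p = 0.5 in the same exact test). Against introns over 5000 bp away the members were higher by 2.86, 2.56 and 3.23 points (mean 2.88 ± 0.339, p = 0.25 in the same exact test), so the direction was the same in 3 of 3 replicates, at a size of about 3 percentile points. Ranked by the q-value, the mean difference was 2.16 points (p = 0.5 in the same exact test). Differences of the same sign in all 3 replicates would give 0.25. Against intergenic peaks the sign differed between replicates, with differences of -1.58, 5.69 and 4.47 points (exact p = 0.5).

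Most members were found again in single replicates. The IDR set holds peaks whose ranks repeat between replicates, so this was largely set in advance. A member counted as recovered when one of a replicate's strongest 7545 regions had its summit within 200 bp. Replicate 1 recovered 1106 members (80.8%, against 78.7% of all IDR peaks), replicate 2 recovered 1102 (80.5%, against 80.8%) and replicate 3 recovered 1080 (78.9%, against 83.2%). All 3 replicates recovered 747 members, which was 54.6% (exact 95% interval 51.9 to 57.2%) against 55.9% of all IDR peaks, and 6 members were recovered in none. Two-sided Fisher's exact tests found no difference past the threshold from introns over 5000 bp away (52.4%, difference 2.19 points, Newcombe 95% interval -2.49 to 6.89) or from intergenic peaks (53.4%, difference 1.17 points, interval -3.91 to 6.27), with a Benjamini-Hochberg adjusted p of 0.675 for both. All 3 replicates recovered 94.7% of the 456 strongest members, 57.0% of the next 456 and 12.04% of the 457 weakest. Strength and recovery both rest on signal from the same replicates, so this trend was largely set in advance.

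The nearest other IDR summit lay at a median of 1338 bp, against 2148 bp for introns over 5000 bp from a TSS and 1579 bp for all IDR peaks. Another summit lay within 1000 bp of 37.5% of members, near the 36.7% of all IDR peaks. The deposited intervals were 476 bp wide in the median, and 51 members (3.73%, against 3.29% of all IDR peaks) shared an interval with a further summit.

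Most members lay in the first intron of their host transcript. The host was the transcript over the summit with the nearest TSS of its own, with protein-coding genes taken before others. The first intron held 918 members (67.1%, interval 64.5 to 69.5%), the second 318 (23.2%) and later introns 133 (9.72%). In the strongest regions of single replicates that met the rule, the share in the first intron was 66.1%, 67.9% and 68.0% (mean 67.3 ± 1.04, SD, n = 3). It was 62.2% of 4830 weaker regions and 53.6% of 4360 evenly taken windows of eligible sequence. The host intron was 6938 bp long in the median for members, 8241 bp for weaker regions and 9522 bp for the windows. For 1089 members (79.5%) the nearest TSS of any gene belonged to the host, against 72.1% of weaker regions and 63.8% of windows. Members lay nearer to the host TSS than weaker regions (median 2990 against 3554.5 bp). None of these comparisons was matched for distance, and its part in them was not tested. Counted over all members, 95 lay in transcripts of 2 or more genes at once.

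The hosts were 814 genes, 11.5% of the 7082 genes with eligible intronic sequence. Among protein-coding genes 799 of 6851 were hosts (11.7%). The share of hosts was higher among genes with more eligible sequence: 0.953% of genes with up to 1 kb hosted a member, 14.1% with 1 to 3 kb, 23.7% with 3 to 6 kb and 37.4% with over 6 kb. Of the hosts, 481 held 1 member, 188 held 2 and 145 held 3 or more. Those 145 genes contained 580 of the 1369 members.

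Host genes usually had a peak at their own start as well. An IDR summit lay within 500 bp of a TSS of 586 of the 814 hosts (72.0%, interval 68.8 to 75.1%), against 32.1% of the eligible genes that hosted no member. In the strongest regions of single replicates the hosts gave 73.3%, 66.5% and 71.0% (mean 70.3 ± 3.45, SD, n = 3) and the other eligible genes 28.5%, 31.7% and 35.4% (mean 31.9 ± 3.49), with no overlap. The gap was there at each length of eligible sequence: hosts gave 73.7%, 71.0%, 72.8% and 71.7% from the shortest to the longest class and the other genes 30.8%, 34.8%, 33.6% and 34.6%. A summit at any TSS of a gene counted, and the number of TSSs per gene was not matched. Transcription or chromatin state of these genes was not measured here, and its part in the pairing was not tested.

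**Figure D2:**
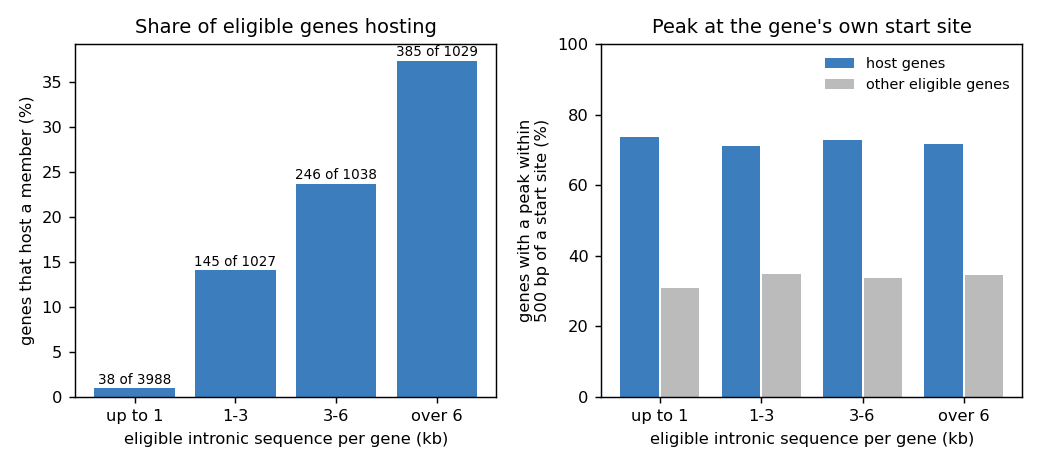
Left, the share of eligible genes that hosted a member (y axis, %) by the eligible intronic sequence per gene (x axis, kb), with counts over the bars. Right, the share of genes with a peak within 500 bp of their own start site, for hosts (blue) and other eligible genes (grey); the hosts stay between 71.0% and 73.7% and the others between 30.8% and 34.8%.

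The strongest members were chosen by their signal ranks in the 3 replicates, so the ranks that follow are a description. Of all members, 429 ranked beyond 10000 or had no match in at least 1 replicate. The 20 members whose ranks had the lowest mean, of 1288 matched in all 3 replicates, lay in 19 host genes and never ranked below 239 of 30000. Of these 20, 16 lay in a first intron, 16 had a host with a peak at its start, and for 19 the nearest TSS was the host's. The leading member was in the second intron of CG11050, a gene known by its annotation number, 1028 bp from the TSS, and ranked 10, 2 and 2 in replicates 1, 2 and 3. The next lay in the second intron of Trl, which encodes the GAGA factor that binds GA-rich promoters and keeps chromatin open, and ranked 11, 4 and 6. Tlk, the Tousled-like kinase that acts on histone chaperones in chromatin assembly, held a member in its first intron of 41450 bp that ranked 8, 8 and 9.

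A pair of members lay in the first intron of ush. This gene encodes U-shaped, a zinc-finger cofactor of GATA factors such as Pannier. The stronger ranked 2, 11 and 13, and the TSS nearest to it, at 1403 bp, was that of the neighbour cbt, the zinc-finger factor cabut. The weaker, 4962 bp from a TSS shared by ush and a long non-coding RNA, ranked 50, 154 and 239. For both, replicate 1 gave the better rank, but all values stayed near the top of the list.

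The other hosts of the 20 had varied annotated roles, and several are known by an annotation number only. In the first intron of HmgZ, a high-mobility-group protein of chromatin, a member also inside its neighbour HmgD ranked 12, 43 and 33. Sin3A, the scaffold of a histone deacetylase complex, held one that ranked 209, 199 and 113, and Kdm2, a histone demethylase, one that ranked 133, 104 and 191. Pdk, the kinase that restrains pyruvate dehydrogenase, gave 34, 119 and 92. For sug, or sugarbabe, a zinc-finger factor of the response to dietary sugar, the ranks were 13, 205 and 135, with replicate 1 well ahead of the others. The member in for, the cGMP-dependent protein kinase known from foraging behaviour, ranked 212, 54 and 99. The member in norpA, the phospholipase C of fly vision, ranked 167, 52 and 61. In Tre1, a receptor that guides germ cell migration, the ranks were 83, 134 and 178. The ranks were 93, 97 and 100 for CG9837 and 74, 69 and 75 for CG12769. The remaining hosts of the 20 were CG32772, SCaMC, Glut4EF, CG3726 and CG3764, with ranks between 47 and 227.

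**Figure D3:**
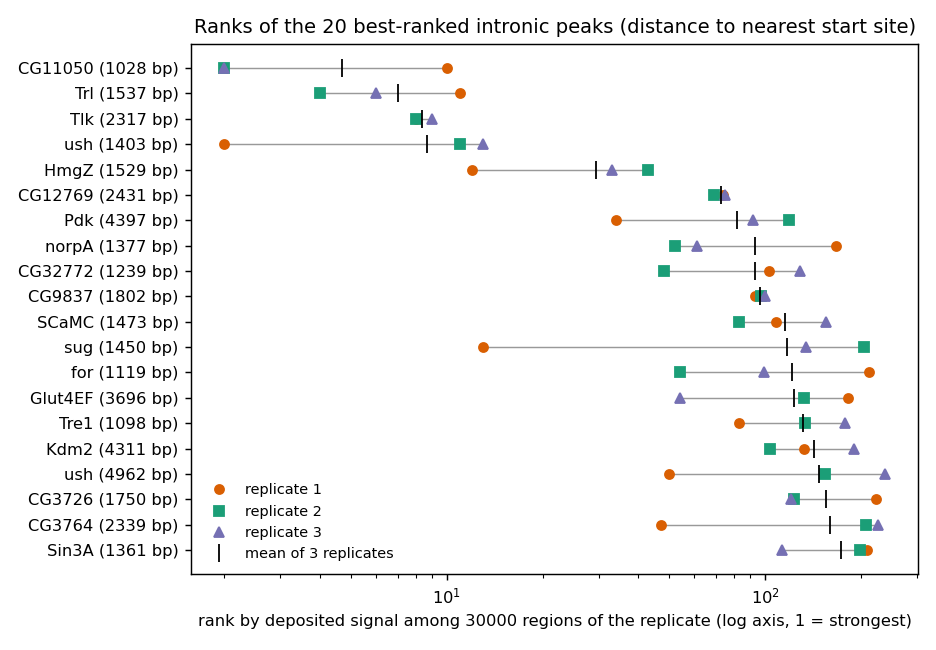
Rank by deposited signal (x axis, log scale, 1 is the strongest of 30000 regions) in each of the 3 replicates for the 20 best-ranked members, named by host gene with the distance to the nearest TSS. Black ticks are means; CG11050, Trl, Tlk and the stronger ush member rank 13 or better in every replicate.

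The 10 genes with the most members held 8 to 15 each. The zinc-finger factor shn (Schnurri, which acts with Mad in Dpp signalling) held 15 members in 30.3 kb of eligible sequence, of which 12 were recovered in all 3 replicates. Its strongest ranked 89, 336 and 503. The ecdysone-induced nuclear receptor gene Eip75B held 14 in 50.8 kb, the strongest at ranks 362, 960 and 628. The basic leucine zipper gene Pdp1, part of the circadian clock loop, held 12 in 18.8 kb, and tna (tonalli), which interacts genetically with Brahma-type remodelling genes, held 11 in 22.2 kb. The overlapping genes lncRNA:CR44357 and CG1677 held 12 and 10 members, in large part the same ones. Tlk had 9, and CG3764, tou and siz had 8 each. All of these genes but lncRNA:CR44357 had a peak at their own start, and CG3764 had the most members for its size, 0.843 per kb.

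Gene lists were compared with the 11.7% of eligible protein-coding genes that hosted a member, as counts only. The lists differ in eligible length, on which hosting depends, so the density per Mb is given beside each. For all eligible sequence it was 68.0 per Mb. The basic leucine zipper factors had 8 hosts of 11 eligible genes and 273 members per Mb, led by cnc, the oxidative stress factor, whose best member ranked 191, 3871 and 2283. The others with high signal were CrebB, a cAMP-responsive factor (1182, 870 and 2094), and Pdp1 (1030, 1347 and 1793). For cnc replicate 1 stood apart from the other 2.

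The cascade of ecdysone, the steroid that times fly development, had 11 hosts of 16 eligible genes, 42 members and 170 per Mb. Kr-h1, a zinc-finger factor downstream of hormone signals, had 6 members and its best ranked 117, 273 and 177. EcR, the ecdysone receptor itself, had 6 with the best at 2555, 1403 and 448. The best of Eip75B ranked higher than that of EcR in replicates 1 and 2, and lower in replicate 3.

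Most signalling lists lay above the share of all genes, to different extents. In the Dpp pathway, the fly's BMP signal, 5 of 19 eligible genes were hosts, with 173.5 members per Mb. They held 23 members, 15 of them in shn. The inhibitory Smad Dad had a member at ranks 69, 281 and 474, and the receptor gene tkv one at 297, 1100 and 998. In the EGF receptor pathway 9 of 22 genes were hosts (140 per Mb), among them the kinase Raf (246, 222 and 483), the Ets activator pnt (969, 456 and 408) and the Ets repressor aop (2596, 1305 and 950). The insulin and TOR list had 6 hosts of 21 (245 per Mb), with the receptor InR at 489, 938 and 396. The Wnt list had 6 of 23 and the Hippo list 5 of 16, at 66.9 and 99.4 per Mb. The Notch list had 2 of 15 (13.3%, near the share of all genes) at 62.7 per Mb. It was led by mam, the coactivator Mastermind, at 799, 303 and 194. The Wnt and Notch densities were slightly below the 68.0 of all eligible sequence.

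The Trithorax list, named for genes that maintain active transcription, had 7 hosts of 20 and the highest density of all lists, 378 per Mb. Besides Trl its hosts included the remodeller Mi-2 (273, 1016 and 687) and the histone methyltransferase trx (1379, 463 and 598). Being on the list does not say whether a gene activates or represses. Polycomb genes, which maintain repression, had 2 hosts of 18 (11.1%, near the share of all genes) at 34.6 per Mb. These were ph-p, at ranks 405, 269 and 533, and Su(z)2, at 2531, 2541 and 3005. The GATA, forkhead and endoderm factors had 4 hosts of 11 (217 per Mb), led by GATAd at 148, 414 and 427, and clock genes 6 of 16 (226 per Mb).

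Some of these densities rested on 1 gene, by a calculation added after seeing the data. Without Pdp1, which holds 12 of the 18 members of the clock list and 12 of the 25 in basic leucine zipper genes, they were 98.9 and 179 per Mb. Without CHES-1-like, with 7 of the 11 members of the GATA, forkhead and endoderm list, the density was 100.7 per Mb. The Dpp list gave 78.2 per Mb without shn, the Notch list 13.4 without mam and the Polycomb list, with 2 members in all, 18.6 without ph-p. The Trithorax list, with 11 of its 27 members in tna, gave 325 per Mb without that gene. Without Eip75B, which holds 14 of the 42 members of the ecdysone list, the density was 143 per Mb.

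Some lists had more hosts than the background yet few members for their length. Neuronal RNA-binding and synaptic genes had 7 hosts of 26 but 25.4 members per Mb, and voltage-gated ion channels 4 of 18 but 21.1 per Mb. Axon guidance genes, with 12 of 36, had 64.2 per Mb and muscle genes, with 8 of 28, had 65.7 per Mb, both near the 68.0 of all eligible sequence. The 32 Dpr and DIP genes, cell-surface recognition proteins of neurons, hosted 0 members in 312 kb of eligible introns, which allows a share of hosts of up to 9.38%. Only 2 of those 32 genes had a peak at a TSS. Ribosomal protein, glycolytic, heat shock and Sp or Krueppel-like genes also hosted 0, but with 5 to 8 eligible genes each the limit is 37.5% or more. Of 34 lists, 5 hosted no member.

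**Figure D4:**
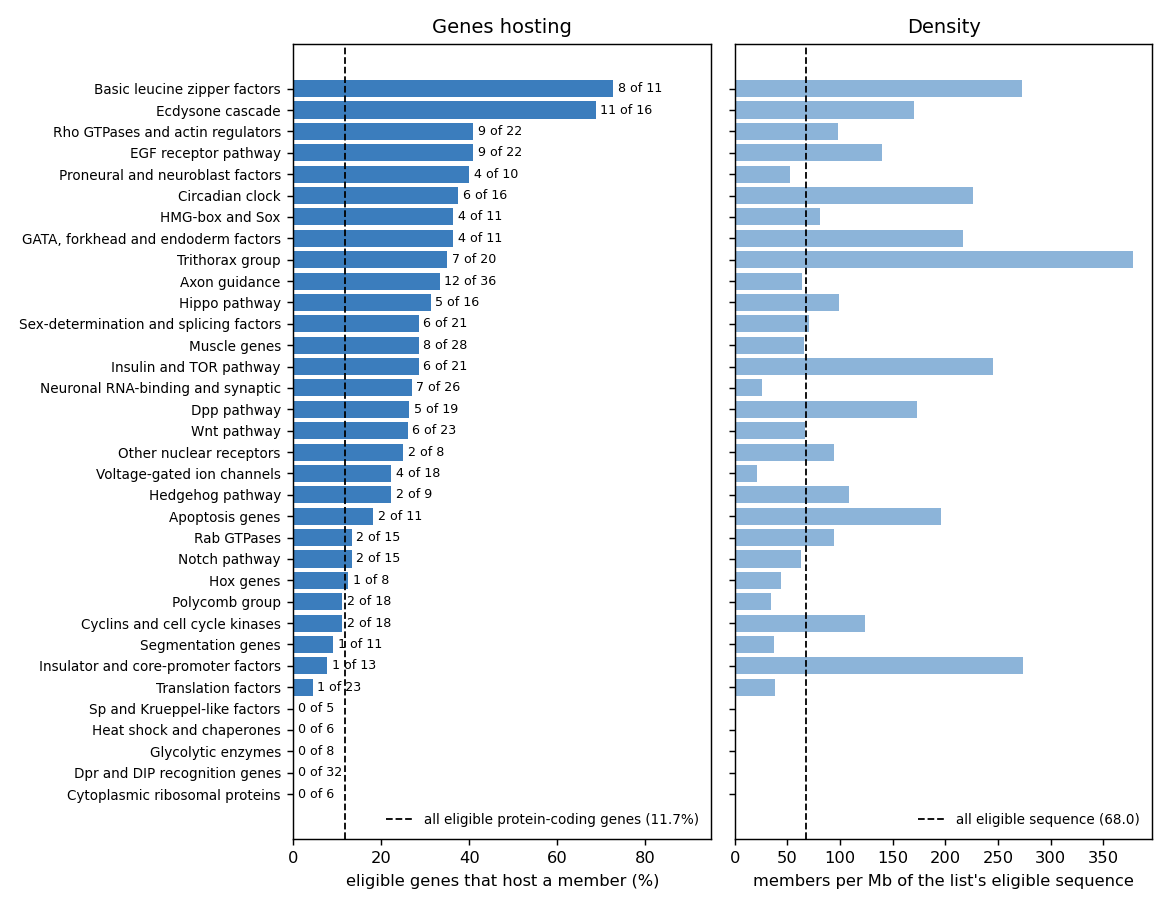
For each gene list, the share of eligible genes that hosted a member (left, %, with counts) and the members per Mb of the list's eligible sequence (right). Dashed lines give all eligible protein-coding genes (11.7%) and all eligible sequence (68.0 per Mb); ion channel and synaptic genes lie right of the line on the left and short of it on the right.

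CG10543 itself was also a host. Its stronger member, 1369 bp from the nearest TSS, ranked 36, 492 and 648, and another in the same interval ranked 10580, 4465 and 5052. The gene also had 2 summits within 500 bp of a TSS. The line carries a tagged CG10543 transgene, and the copy number of this locus is not given in the sources used here. Its part in these ranks was not tested.

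Motifs were then counted in windows of 201 bp around each summit and in a window of the same size 500 bp to one side of it, chosen at random. By an exact McNemar test with Benjamini-Hochberg adjustment over 39 motifs, 5 were more frequent at member summits (12.8% of those tested) and 2 less frequent (5.13%). The largest odds were those of the GC box GGGCGG, bound by Sp-type zinc fingers, found in 10.01% of summit windows against 4.75% of flanks (odds 2.22, 95% interval 1.62 to 3.07, exact test, adjusted p = 4.30e-06). The forkhead site TGTTTAC was found in 11.0% against 5.62% (odds 2.09, interval 1.55 to 2.84, exact test, adjusted p = 5.59e-06) and the CACC box CCACCC, a letter pattern of Krueppel-like factors, in 12.6% against 6.79% (odds 2.04, interval 1.54 to 2.72, adjusted p = 4.30e-06). A CA repeat, CACACACA, gave 9.35% against 5.19% (odds 1.95), a call that held in 3 of 8 alternative settings, with a highest adjusted p of 0.1995 in the exact test. The Zeste site TGAGTG gave 13.4% against 8.62% (odds 1.65) and held in 7 of 8. With the flank at 1000 bp its odds were 1.14 (exact McNemar test, adjusted p = 0.605). In all 87188 windows of the same length in eligible introns the shares of these motifs were 6.44%, 4.64%, 8.39%, 5.19% and 9.93% in that order. The letters of both strands were searched, and matches of different motifs may overlap.

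The 2 less frequent motifs were rich in A and T. The Bicoid site TAATCC was found in 3.43% of summit windows against 6.87% of flanks (odds 0.484, interval 0.329 to 0.700, 6.56% of eligible windows), and the homeodomain core TAATTA in 10.5% against 15.9% (odds 0.624, interval 0.494 to 0.786, 15.3% of eligible windows). Both calls held in 7 of 8 alternative settings. The homeodomain call did not hold with the flank at 1000 bp (odds 0.808, exact McNemar test, adjusted p = 0.205). Each of the 7 motifs differed from its flanks in the same direction in the strongest regions of all 3 replicates. So did many motifs that were not called, such as the Runt site ACCACA and the Snail-type E-box CAGGTG. This agreement therefore does not set the 7 apart. For the forkhead site the replicates gave 9.61%, 10.3% and 10.9% at summits (mean 10.3 ± 0.641) and 5.19%, 5.50% and 5.75% in flanks (mean 5.48 ± 0.283, SD, n = 3). For the CACC box they gave 13.5%, 10.4% and 11.8% at summits and 7.26%, 7.12% and 6.42% in flanks.

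Base composition moved with these counts. G and C made up 43.0% of member windows and 39.3% of the sequence 500 bp to either side, and 39.9% of eligible windows. The replicates gave 44.3%, 41.6% and 43.0%. The flanks at 500 bp lay where G and C around the members were lowest. In 50-bp bins the content rose again to 41.6% and 41.7% at 1000 bp. Of all 2080 6-mers, 196 were more frequent at summits (9.42%) and 162 less frequent (7.79%, exact McNemar test, adjusted over all of them). The count was 58 with the flank at 1000 bp, 99 with a window of 50 bp on each side and 65 in the stronger 50% of members. Leaving out replicate 1, 2 or 3 gave 91, 122 and 110. Of the 196, 156 had 4 or more G or C, and of the 162, 133 had 2 or fewer. The smallest p belonged to the run CCCCCC, present in 12.7% of summit windows, 4.53% of flanks and 5.31% of eligible windows (odds 3.15, interval 2.30 to 4.40, exact test, adjusted p = 2.17e-11). Of the 40 6-mers that contain a run of 4 C, counted with their complements, 30 were more frequent. Words of A and T went the other way, with AATTAA in 20.01% of summit windows against 32.7% of flanks. The largest odds of all, 4.25 for GGTACC (17 windows against 4), and those of GCGCGC (2.76) were past the threshold in 1 and 2 of 8 alternative settings. The part of base composition in the motif counts was not tested.

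Against weaker regions that met the same rule the picture was narrower. Their windows had 43.1% G and C, so composition was nearly matched, and 3 of 39 motifs differed (7.69%, Fisher's exact test with adjustment). The forkhead site was in 11.0% of member windows and 6.89% of weaker ones (difference 4.06 points, Newcombe 95% interval 2.34 to 5.95, exact test, adjusted p = 7.46e-05). The TATA box letters TATAAA were in 24.3% against 20.2% (difference 4.12 points, interval 1.63 to 6.71, exact test, adjusted p = 0.0143). They were in 24.5% of eligible windows and 27.8% of the member flanks, so members did not have more of them than either. The Caudal site TTTATGG was less frequent, at 5.11% against 8.03% (difference -2.92 points, interval -4.24 to -1.43, exact test, adjusted p = 0.00342). For the GC box and the CACC box the test against weaker regions did not pass, with shares of 8.94% and 12.3% in the weaker regions. This comparison was chosen after seeing the data.

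**Figure D5:**
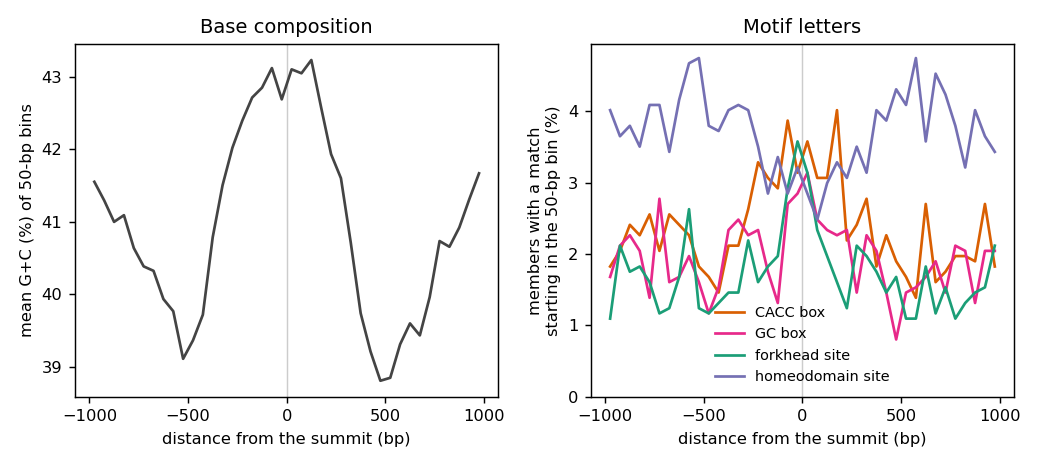
Left, mean G and C content (y axis, %) of member sequence in 50-bp bins by distance from the summit (x axis, bp). It stands near 43% at the summit, is lowest (39%) about 500 bp away, and is 41.6% and 41.7% in the outermost bins. Right, the share of members with a match to each of 4 motifs starting in the bin; the forkhead site peaks at the summit itself (3.58% of members in the bin before it), whereas the CACC box is raised over a wider stretch and the homeodomain site dips.

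No motif passed the test between the 2 classes of intronic peaks. Fisher's exact test called 0 of 39 (0%) different between members and introns over 5000 bp away, 2 were under an unadjusted p of 0.05, and the lowest adjusted p was 0.436. For the forkhead site the difference was 1.46 points (Newcombe 95% interval -1.51 to 4.17) and for the CACC box -2.78 points (interval -6.23 to 0.413), so differences of several points remain possible. G and C content was 43.0% and 43.3%.

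TSS peaks differed from members in 10 of 39 motifs (25.6%, the same test, a comparison chosen after seeing the data), 7 of them more frequent in members. The core-promoter element DRE, TATCGATA, was in 4.09% of TSS windows and 0.219% of member windows (exact test, adjusted p = 4.54e-16), and Motif 1, GGTCACACT, in 2.59% and 0.0730% (exact test, adjusted p = 2.66e-11). Members had more of the Twist-type E-box CACATG, at 13.1% against 8.36%, of the GATA site AGATAA, at 16.4% against 12.5%, and of the forkhead site, at 11.0% against 7.44%. G and C content was close, 43.0% and 42.3%.

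No 6-mer passed the test between strong and weak members, a comparison chosen after seeing the data. Between the 456 strongest and the 457 weakest, 0 of 2080 6-mers (0%) differed by Fisher's exact test with adjustment, 117 were under an unadjusted p of 0.05 and the lowest adjusted p was 0.352. The forkhead site was in 11.0% of the strongest, 12.1% of the next 456 and 9.85% of the weakest, and G and C content was 42.8%, 42.8% and 43.3%. With this many windows, small differences would not pass.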

How the data were processed

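ChIP-seq of CG10543-eGFP embryos was represented by region lists on dm6 for each of 3 replicates, for their pool (30000 regions each) and for the IDR set (7545). The authors deposited for every region a signal value, used here only to rank regions within a list, and a −log10 q-value. Replicates and pool were called against 1 control alignment, per the file headers. Neither aligner nor peak caller is given in the sources used here. As the files hold no read counts, depth is unknown, and intervals cover the counting of regions or genes only. Lists on dm3 were not used.

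Summits were classed with Ensembl release 115 without transposable elements (18164 genes, 6 chromosome arms), and sequence came from RefSeq Release 6. A replicate's region was matched to a member by the nearest summit within 200 bp. Computation used Python 3.11.15, numpy 2.4.6, pandas 2.3.3 and scipy 1.17.1, and tests were tried on simulated data with planted motifs. An adjusted p under 0.05 was called.

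Named genes were the hosts of the 20 members with the best mean rank, the 10 hosts with most members, and up to 3 hosts with the strongest member from each of the lists described; named motifs and 6-mers had the largest odds or the smallest p. Of the list symbols, 12 were matched by a synonym and 10 had no match. Members, lists, motifs and tests were chosen with earlier results of these data known. A member close to another can match the same replicate region, as for 32, 35 and 42 of 1369 members in replicates 1, 2 and 3.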

Additional observations from a re-analysis of the deposited data

How the results depend on the processing

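The share in the first intron stayed within its interval under the alternatives tried. The percentile differences kept their sign there, in the pooled list or as means over replicates. The recovery difference from introns over 5000 bp away passed the threshold in none of them, but its sign changed with all regions of a replicate (-0.537 points) and without replicate 1 (-0.0688 points). Members per Mb came to 73.0 with start sites of protein-coding genes only and 59.8 with 1 summit per merged interval. In the stronger 50% of the IDR list there were 591 members at 29.3 per Mb, 5.92% of eligible genes were hosts and 56.6% of hosts had a TSS peak; fewer peaks enter by construction, at TSSs too. Keeping only peaks that both other replicates recovered, with each replicate left out in turn, gave 868 to 924 members, 43.1 to 45.9 per Mb, 7.89 to 8.70% of genes as hosts and 58.0 to 63.9% of hosts with a TSS peak. Motifs less frequent at summits numbered 1 with a window of 50 bp on each side. With the flank on the other side of each summit 8 motifs were more and 6 less frequent. More frequent 6-mers numbered 99 with the narrower window, 65 in the stronger 50% of members, 58 with the flank at 1000 bp and 91 to 122 with a replicate left out, where fewer windows enter. The CACC box, GC box and forkhead site were called in 8 of 8 alternatives, the Bicoid, homeodomain and Zeste sites in 7 and the CA repeat in 3; the cause was not tested. No paired analysis was possible because there was only 1 group, so no replicate number joins samples of different groups. Read depth and its limit on weak peaks are unknown.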
